A study of Mus musculus with 21 samples.

Results

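The 9 genes described here encode 6 metabotropic glutamate receptors (Grm2, Grm3, Grm4, Grm5, Grm7 and Grm8) and the 3 Homer scaffold proteins (Homer1, Homer2 and Homer3). They were taken by symbol from a table of 64361 genes, and all 9 had enough counts to be tested for a genotype effect in both brain regions. RNA came from microdissected cortex and hippocampus of 11 mice on a C57BL/6J background, killed at 30 to 40 weeks of age, when the transgenic animals had reached the humane endpoint. GA-Camk2a mice carry a floxed transgene for GFP-tagged poly-GA, a dipeptide repeat protein of C9orf72 ALS, which a Camk2a-Cre driver switches on in excitatory neurons. Control mice are labelled ctrl, which gives no genotype, and the study names controls of this line by the Camk2a driver in an immunofluorescence panel, without saying so of the sequenced animals. Per the study's methods the GA-Camk2a mice came from few litters, and the sample labels give no sex. By the sample labels there were 5 control and 6 GA-Camk2a samples of cortex, and 4 and 6 of hippocampus. The study's text gives the control numbers of the regions the other way round, and the labels were followed. Each library is 1 mouse, and 10 of the mice gave both regions.

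Metabotropic glutamate receptors are G protein-coupled receptors that sense glutamate and set the strength of a synapse more slowly than glutamate-gated ion channels do. Group I receptors, such as Grm5, sit mostly on the postsynaptic side and act through Gq and phospholipase C. Group II receptors (Grm2 and Grm3) and group III receptors (Grm4, Grm6, Grm7 and Grm8) act through Gi/o proteins and, on nerve terminals, hold back transmitter release. Homer proteins bind the tails of group I receptors and tie them to Shank scaffolds and to calcium release channels. Homer1 also gives rise to a short form that is induced by neuronal activity and competes with the long forms, and the gene counts used here pool all forms.

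Total counts per library ran from 1048201 to 5888102 and were highest on average in hippocampus controls. Values below are counts scaled to the library total (CPM), log2 fold changes are GA-Camk2a against control unless said otherwise, and a gene is called changed at a Benjamini-Hochberg adjusted p under 0.05 in the edgeR quasi-likelihood test with batch as a term. The GFP row held 0 to 4 counts in GA-Camk2a and control libraries alike, with up to 2 in controls and 0 in 5 of 12 GA-Camk2a libraries, so the transgene did not check the genotype labels. The dentate gyrus marker Prox1 was at 35.2 to 74.9 CPM in the libraries labelled hippocampus and at 6.36 to 16.2 CPM in those labelled cortex. The choroid plexus list had the widest range in summed CPM between hippocampus libraries, from 1808 to 55520. A list of cortical layer markers also varied widely there, from 206 to 5411 summed CPM.

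Promoter sequences are given for 3 members. Homer1 and Homer3 are shown because Homer1 fell in cortex whereas Homer3 was not called there and had a positive fold change, and Grm3 because the genes most like it across libraries included Egr1. RefSeq windows of 300 bases (250 before and 50 after the transcription start, build GRCm38.p6) matched 7 of the 9 members with 12 windows, and Grm4 and Grm5 had no entry. The sequences run 5′ to 3′ on the strand of the gene. Capitals mark, on either strand, the core of the cAMP response element (TGACG), the GC box (GGGCGG), the Egr motif (GCGGGGGCG) and the TATA box (TATAAA), and a GC box on the other strand reads CCGCCC.
Homer1, chr13:93303507-93303806, plus strand: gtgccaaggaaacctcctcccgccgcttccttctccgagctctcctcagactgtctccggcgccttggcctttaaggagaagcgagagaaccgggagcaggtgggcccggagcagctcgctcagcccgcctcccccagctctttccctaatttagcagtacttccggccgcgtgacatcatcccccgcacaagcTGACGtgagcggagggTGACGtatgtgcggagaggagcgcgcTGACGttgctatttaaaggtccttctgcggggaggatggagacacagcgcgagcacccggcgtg
Homer3, chr8:70282749-70283048, plus strand: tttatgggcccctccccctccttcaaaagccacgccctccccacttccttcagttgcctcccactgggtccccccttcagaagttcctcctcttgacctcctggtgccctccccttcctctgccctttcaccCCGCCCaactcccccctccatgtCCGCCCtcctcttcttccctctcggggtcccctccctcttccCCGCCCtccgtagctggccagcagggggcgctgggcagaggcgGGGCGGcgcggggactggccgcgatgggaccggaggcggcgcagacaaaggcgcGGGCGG
Grm3, chr5:9725303-9725602, minus strand: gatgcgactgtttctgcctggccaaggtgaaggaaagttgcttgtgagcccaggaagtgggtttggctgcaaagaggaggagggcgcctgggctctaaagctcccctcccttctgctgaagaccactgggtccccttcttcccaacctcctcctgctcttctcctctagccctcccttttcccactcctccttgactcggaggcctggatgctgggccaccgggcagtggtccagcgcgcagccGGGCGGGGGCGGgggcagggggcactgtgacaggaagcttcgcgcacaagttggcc
The Homer1 window shown held TGACG 3 times, beginning 56, 40 and 14 bases before the start, and no GC box. Homer1 had another window, not shown, which held none of the motifs searched. The Homer3 window held 5 GC boxes and no TGACG. In the Grm3 window the Egr motif began 4 bases before the start and overlapped both of its GC boxes. Over all 32851 windows of the table, TGACG was present in 20.8%, the GC box in 35.7%, the TATA box in 13.6% and the Egr motif in 2.91%. Among the 7 matched members, TGACG was found in windows of Homer1 and Grm8, the Egr motif in Grm3, the TATA box in another window of Homer2, and the GC box in 6 members, with 8 copies in the first Homer2 window. None of them held the full element TGACGTCA (1.79% of windows), which contains TGACG, or the E-box CACGTG (7.15%), and the AP-1 motif TGANTCA (7.81%) was found in Grm8 alone. These matches are descriptions of the letters in the windows.

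In the cortex, 8 of the 9 members were lower in GA-Camk2a mice and 0 were higher. One of these calls, Grm8, passed the count filter through the controls (6 to 27 counts, against 1 to 9), and with Grm8 set apart 7 of 8 members were lower. For comparison, 6.17% of the 13058 genes tested in cortex were called lower and 6.35% higher. The exception was Homer3, which was not called. The median log2 fold change was -0.68 over the 8 members without Grm8 and -0.73 with it, against -0.01 for all genes tested. In the hippocampus 5 members were lower (Grm3, Grm5, Homer1, Homer2 and Homer3) and 0 were higher, where 5.97% of 14884 genes were called lower and 4.97% higher. The hippocampal median was -0.52, against 0.02 for all genes tested. In cortex the calls of Grm2, Grm3, Grm5, Homer1 and Homer2 held in each of 11 fits without 1 library, while the count fell to 5 without control 31 or GA-Camk2a 23 and was 5 in batch 1 and 2 in batch 2. In hippocampus the calls of Homer1, Homer2 and Homer3 held in each of 10 such fits, and the count fell to 3 without control 20 or 31 and was 0 in batch 1 and 3 in batch 2. Because these are bulk samples, fewer cells of a type and less RNA per cell cannot be told apart.

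**Figure D1:**
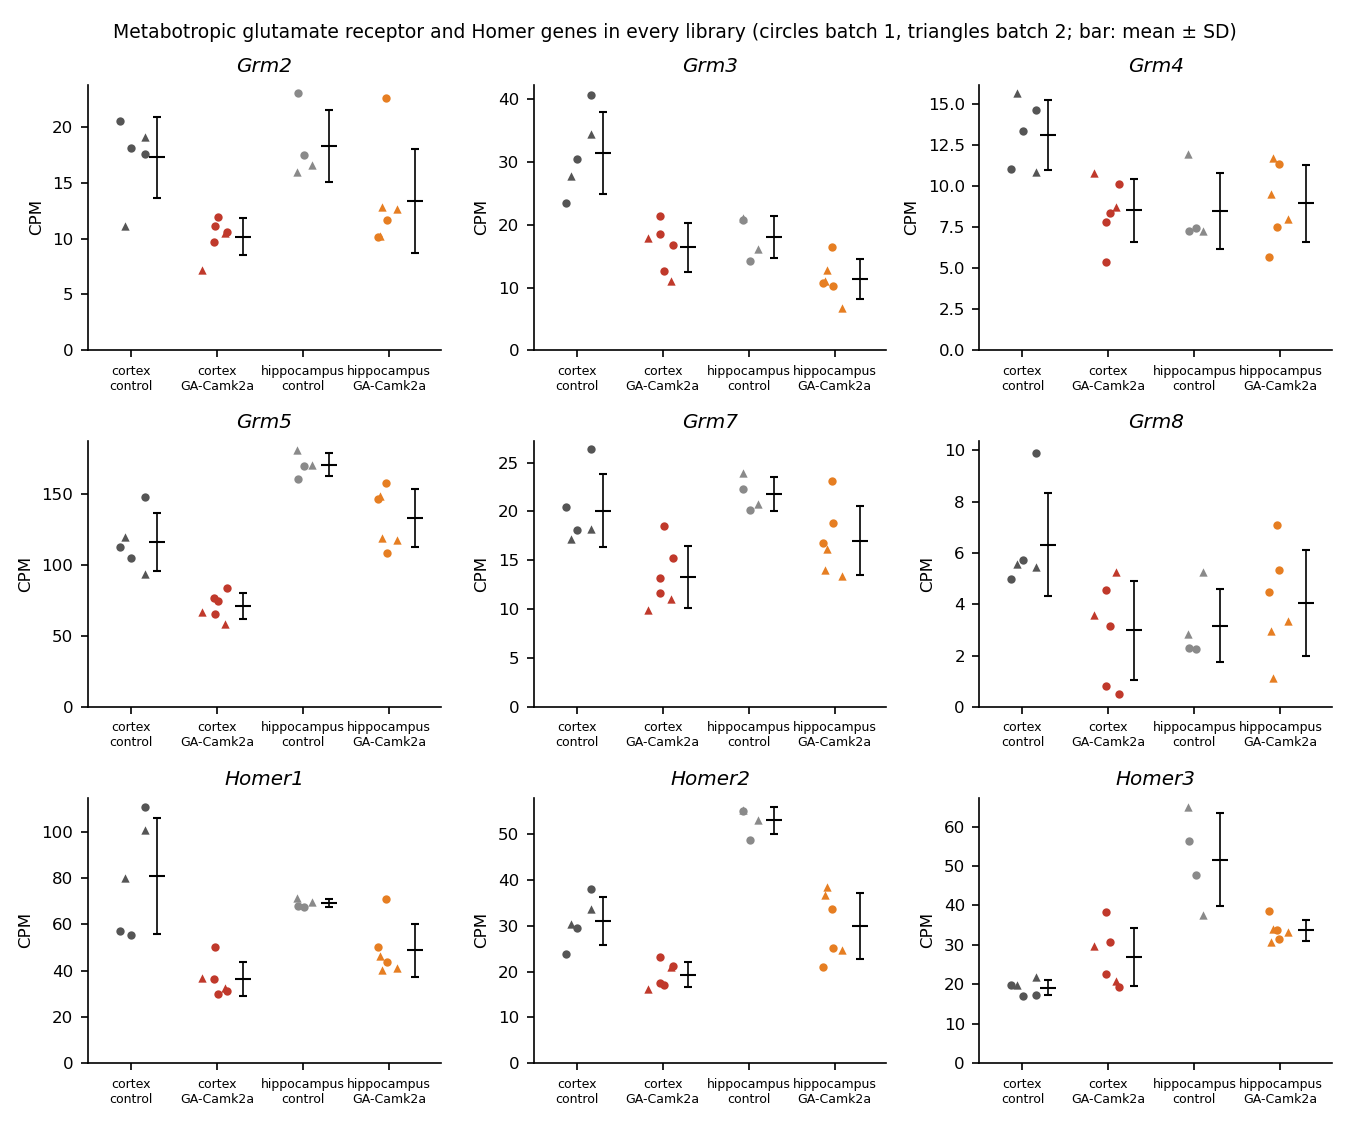
CPM of each member in every library, by region and genotype; circles are batch 1, triangles batch 2, and the bar is the mean ± SD (n = 5, 6, 4 and 6 from left to right). In cortex the GA-Camk2a points of Grm3, Grm4, Grm5, Homer1 and Homer2 lie below every control point, and those of Homer3 mostly lie above them.

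Grm5, the main group I receptor of forebrain neurons, fell in both regions. In control cortex its level was 104.9 CPM in mouse 11, 93.55 in mouse 20, 148 in mouse 31, 120.0 in mouse 37 and 113 in mouse 38. GA-Camk2a cortex had a lowest value of 58.3, a median of 70.7 and a highest value of 83.6 CPM. The groups did not overlap, with a log2 fold change of -0.73 ± 0.11 (SE, adjusted p = 6.01e-05, edgeR). In hippocampus the controls had 169.9 CPM in mouse 11, 170.7 in mouse 20, 181 in mouse 31 and 161 in mouse 37. The GA-Camk2a hippocampus ran from 108 through a median of 133 to 158 CPM, again below every control, and the log2 fold change was -0.40 ± 0.10 (adjusted p = 0.0198, edgeR). Within batches the cortical value was -0.70 in batch 1 and -0.80 in batch 2, and the hippocampal value -0.31 and -0.52. The hippocampal call was lost without control mouse 20 (adjusted p = 0.0667, edgeR) and without control mouse 31 (adjusted p = 0.0658). It was also lost with counts thinned to the smallest library (-0.35, adjusted p = 0.0649) and in batch 1 alone (adjusted p = 0.497).

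The group II receptors were lower in cortex. Grm3, which is made by astrocytes as well as neurons, had 30.5 CPM in control mouse 11, 34.5 in mouse 20, 40.7 in mouse 31, 27.9 in mouse 37 and 23.6 in mouse 38. GA-Camk2a cortex had 11.1, 17.4 and 21.4 CPM as its lowest, median and highest values, all below the controls. The log2 fold change of Grm3 in cortex was -0.94 ± 0.18 (SE, adjusted p = 0.00108, edgeR). Hippocampal controls had 14.3 CPM in mouse 11, 16.1 in mouse 20, 21.1 in mouse 31 and 20.7 in mouse 37. GA-Camk2a hippocampus ranged from 6.67 to 16.4 CPM with a median of 10.9, so that 5 of its 6 libraries lay below every control. The hippocampal fold change of Grm3 was -0.69 ± 0.20 (adjusted p = 0.0397, edgeR), a call close to the threshold that 7 of the 10 fits without a library lost (adjusted p 0.0144 to 0.150). It was lost in batch 1 alone (-0.57, adjusted p = 0.467) and in batch 2 alone (-0.86, adjusted p = 0.117), and the cortical call in batch 2 alone (-1.13, adjusted p = 0.0660).

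Astrocyte markers moved the other way, with 4 of 6 higher in cortex (median log2 fold change 0.45) and 5 of 6 in hippocampus (median 0.49). Their summed level was 1570 to 1978 CPM in control and 2615 to 3795 CPM in GA-Camk2a cortex, and their part in the Grm3 values was not tested.

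Grm2, the other group II receptor and an autoreceptor on glutamatergic terminals, had 18.1, 19.1, 17.6, 11.1 and 20.5 CPM in cortex of control mice 11, 20, 31, 37 and 38. Its GA-Camk2a values in cortex were 7.19 at the lowest, 10.6 at the median and 11.9 at the highest, overlapping only with control mouse 37. The cortical log2 fold change of Grm2 was -0.73 ± 0.18 (SE, adjusted p = 0.00967, edgeR), with -0.76 in batch 1 and -0.63 in batch 2. The call was lost with counts thinned to the smallest library (-0.60, adjusted p = 0.139) and in batch 2 alone (adjusted p = 0.555). In hippocampus Grm2 was 17.5, 16.6, 15.95 and 23.02 CPM in control mice 11, 20, 31 and 37, and 10.2 to 22.6 in GA-Camk2a mice with a median of 12.2. That difference of -0.52 ± 0.20 was not called (adjusted p = 0.113, edgeR). It was called with no filter (-0.60, adjusted p = 0.0483) and with all libraries in a single fit (-0.54, adjusted p = 0.0496). The top GA-Camk2a value belonged to mouse 34, and without that library the difference was -0.73 and was called (adjusted p = 0.0122).

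Of the group III receptors, Grm7 and Grm4 were lower in cortex, and neither call held in every alternative. The cortical value of Grm8 is given as a description, because of its count filter. Grm7, found at the release sites of nerve terminals, had 18.1, 18.2, 26.4, 17.2 and 20.5 CPM in cortex of control mice 11, 20, 31, 37 and 38. GA-Camk2a cortex had 9.89, 12.4 and 18.6 CPM as lowest, median and highest, with 5 of 6 libraries below every control. The log2 fold change of Grm7 was -0.59 ± 0.17 (SE, adjusted p = 0.0219, edgeR), a call lost without control mouse 31 (adjusted p = 0.0922) or GA-Camk2a mouse 23 (adjusted p = 0.0553). It was also lost with DESeq2 (adjusted p = 0.0642), in batch 1 alone (-0.54, adjusted p = 0.130) and in batch 2 alone (-0.73, adjusted p = 0.356). In hippocampus Grm7 stood at 20.1, 20.7, 23.9 and 22.3 CPM in the controls and at 13.3 to 23.1 in GA-Camk2a mice, median 16.4. The hippocampal difference was -0.38 ± 0.15 and was not called (adjusted p = 0.124, edgeR).

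Grm4, a presynaptic receptor with its best known role in the cerebellum and basal ganglia, had 13.4, 10.9, 14.7, 15.7 and 11.1 CPM in cortex of control mice 11, 20, 31, 37 and 38. The 6 GA-Camk2a libraries had 5.37 at the lowest, 8.57 at the median and 10.8 at the highest, and did not overlap with the controls. Its log2 fold change of -0.63 ± 0.20 passed narrowly (SE, adjusted p = 0.0447, edgeR) and was lost in 9 of 11 fits without a library, where the adjusted p ran from 0.0361 to 0.140, and in 8 of 10 other alternatives, where it ran from 0.0447 to 0.610 (0.130 with DESeq2). In hippocampus the values of Grm4 overlapped throughout, at 7.30 to 11.97 CPM in 4 controls and 5.67 to 11.7 CPM in 6 GA-Camk2a libraries (0.10 ± 0.23, adjusted p = 0.843). Grm8 rested on 1 to 31 counts per library, and in cortex it passed the count filter through the controls (6 to 27 counts, against 1 to 9 in GA-Camk2a mice). Its cortical values were 4.99 to 9.89 CPM in controls and 0.507 to 5.25 CPM in GA-Camk2a mice, with a log2 fold change of -1.18 ± 0.38 (adjusted p = 0.0449, edgeR). It could be tested in 5 of the 11 fits without a library, and the call was lost in 4 of these, those without control mice 11, 20 or 38 or GA-Camk2a mouse 16 (adjusted p 0.0520 to 0.0655). It was lost in 4 of 8 other alternatives. Hippocampal Grm8 was at 2.27 to 5.27 CPM in controls and 1.12 to 7.10 CPM in GA-Camk2a mice, and no difference was detectable at this depth (0.27 ± 0.40, adjusted p = 0.738). Grm6, the group III receptor of retinal bipolar cells, had 0 to 3 counts per library and was not tested.

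**Figure D2:**
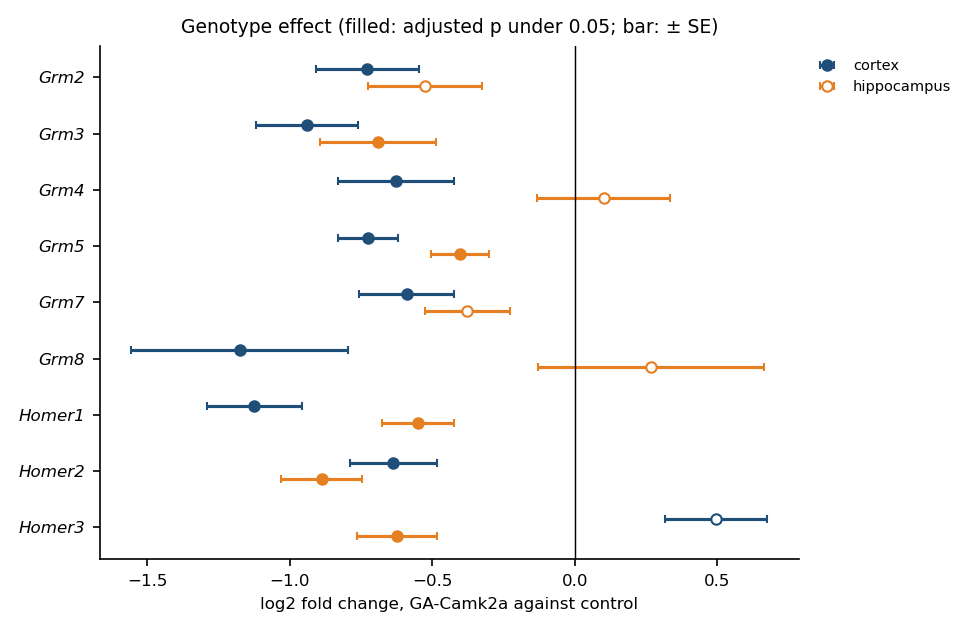
Log2 fold change (± SE) of each member in GA-Camk2a against control mice, in cortex (blue) and hippocampus (orange); filled points have an adjusted p under 0.05. The cortical points lie between -1.18 and -0.59 except for Homer3 at 0.50, and the hippocampal points of Grm4 and Grm8 lie above 0 without passing the test.

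Homer1 had the lowest adjusted p among the Homer genes in cortex. Control cortex had 55.3 CPM in mouse 11, 100.8 in mouse 20, 110.7 in mouse 31, 79.99 in mouse 37 and 57.4 in mouse 38. GA-Camk2a cortex had 30.1, 34.5 and 50.4 CPM as lowest, median and highest, below every control. The log2 fold change was -1.12 ± 0.17 (SE, adjusted p = 8.043e-05, edgeR), with -1.01 in batch 1 and -1.37 in batch 2. In hippocampus the controls were close together, at 67.5, 69.8, 71.2 and 67.9 CPM in mice 11, 20, 31 and 37. The GA-Camk2a libraries ranged from 40.1 to 71.0 CPM with a median of 44.9. Only mouse 34 reached the control range. The hippocampal log2 fold change was -0.55 ± 0.13 (adjusted p = 0.0108, edgeR), with -0.35 in batch 1, where the call was lost (adjusted p = 0.496), and -0.79 in batch 2.

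Homer2, a long coiled-coil form, fell in both regions with no overlap between the genotypes. Its control values in cortex were 29.6, 33.6, 38.1, 30.4 and 23.8 CPM in mice 11, 20, 31, 37 and 38, against 16.2, 19.3 and 23.1 CPM as lowest, median and highest in GA-Camk2a mice. The log2 fold change in cortex was -0.64 ± 0.15 (SE, adjusted p = 0.00714, edgeR). In hippocampus its controls had 48.7 CPM in mouse 11, 53.0 in mouse 20, 55.3 in mouse 31 and 54.9 in mouse 37. The 6 GA-Camk2a libraries lay between 20.9 and 38.5 CPM around a median of 29.4. The hippocampal log2 fold change of -0.89 ± 0.14 (adjusted p = 0.000925, edgeR) had the lowest adjusted p of the 9 members there. Within batches the cortical call was lost in batch 1 (-0.60, adjusted p = 0.0755) and in batch 2 (-0.74, adjusted p = 0.197), and the hippocampal call in batch 1 (-1.02, adjusted p = 0.0603).

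Homer3 was the only member called for a genotype effect that differed between the regions, and that call did not hold in every alternative. In cortex it had 17.2 CPM in control mouse 11, 21.8 in mouse 20, 17.2 in mouse 31, 19.8 in mouse 37 and 19.9 in mouse 38. GA-Camk2a cortex had 19.3, 26.2 and 38.3 CPM as lowest, median and highest, and 4 of the 6 libraries lay above every control. The log2 fold change of 0.50 ± 0.18 was not called (SE, adjusted p = 0.0766, edgeR), but was without GA-Camk2a mouse 30 (adjusted p = 0.0319) or mouse 35 (adjusted p = 0.0452). In hippocampus the controls had 47.7, 37.5, 65.0 and 56.3 CPM in mice 11, 20, 31 and 37, and GA-Camk2a mice 30.9 to 38.5 CPM with a median of 33.5. The log2 fold change there was -0.62 ± 0.14 (adjusted p = 0.00916, edgeR), and 5 of 6 GA-Camk2a libraries lay below every control. That call was lost in batch 1 alone (-0.63, adjusted p = 0.154) and in batch 2 alone (-0.64, adjusted p = 0.132).

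The hippocampal effect on Homer3 minus its cortical effect was -1.13 ± 0.24 on the log2 scale (SE, adjusted p = 0.0290, edgeR, all 21 libraries). This was the only member called for a difference between the regions, in a test that called 0.400% of 14751 genes. With the mouse as a block the difference was -1.20 and the adjusted p 0.0556, so the call was lost, as it was with limma-voom (-0.96, adjusted p = 0.0727) and with counts thinned to the smallest library (-1.06, adjusted p = 0.0547). It was also lost without any of control mice 11, 31, 37 and 38 or GA-Camk2a mice 16 and 41 in cortex, and control mice 31 and 37 or GA-Camk2a mouse 23 in hippocampus, with an adjusted p of 0.0501 to 0.0898 and a value of -1.16 to -0.97. For the other members no difference between regions was called. The nearest were Homer1 (0.59 ± 0.24, adjusted p = 0.370), Grm8 (1.46 ± 0.60, adjusted p = 0.375) and Grm4 (0.71 ± 0.30, adjusted p = 0.390), each with the higher value in hippocampus, and these misses do not show equal effects. In the GRCm38 annotation Homer3 overlaps the protein-coding gene Ddx49 on the opposite strand. Ddx49 itself had 3 to 18 counts per library, with means of 3.51 and 3.94 CPM in control and GA-Camk2a cortex and 3.01 and 2.91 CPM in hippocampus. For the other members with a gene on the opposite strand, none of those genes is annotated as protein coding.

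The relation of Homer3 to Homer1 within a library shows the same values in another form, given as a description. The log2 ratio of their CPM was -2.03 ± 0.46 (SD, n = 5) in control cortex, from -2.68 to -1.52. In GA-Camk2a cortex it was -0.45 ± 0.47 (n = 6), from -1.15 to 0.08, with no overlap. In hippocampus it was -0.45 ± 0.33 (n = 4) in controls and -0.51 ± 0.30 (n = 6) in GA-Camk2a mice, and the ranges overlapped.

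**Figure D3:**
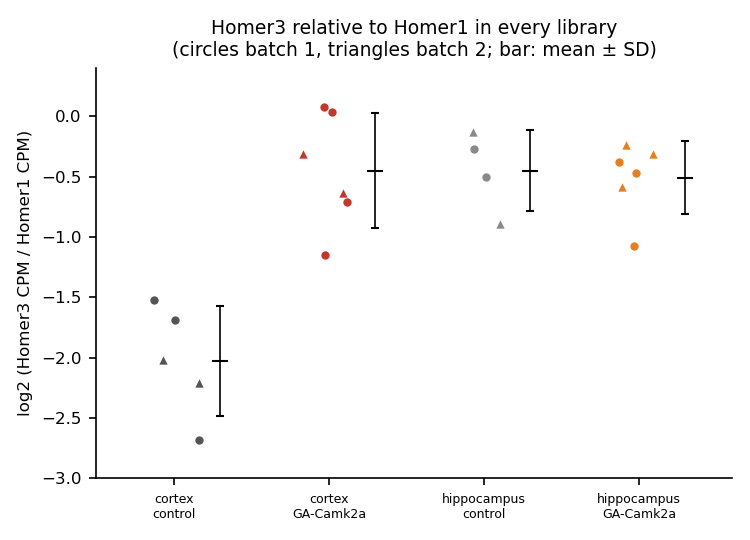
Log2 ratio of Homer3 CPM to Homer1 CPM in every library; circles are batch 1, triangles batch 2, and the bar is the mean ± SD. The 5 control cortex libraries lie between -2.68 and -1.52, below all other libraries, which lie between -1.15 and 0.08.

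Separation of the groups gave the same picture in simpler terms. In cortex every GA-Camk2a library was below every control for 5 members (Grm3, Grm4, Grm5, Homer1 and Homer2), which held for 2.67% of all genes tested. In hippocampus it held for 2 members (Grm5 and Homer2), against 4.02% of all genes tested. GA-Camk2a mouse 34 stood out in hippocampus, where 5 of the 9 members (Grm2, Grm3, Grm4, Grm7 and Homer1) lay within the control range, against 1 or 2 members in each of the other GA-Camk2a mice. Its summed excitatory neuron markers were 1489 CPM, the highest of the GA-Camk2a hippocampus libraries and below the lowest control of 2070 CPM. Without it, 6 members were lower in hippocampus, Grm2 having been added.

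Comparing regions in control mice, 3 members were higher in hippocampus and 3 lower, where 8.69% of 14435 genes were called higher and 7.60% lower. Of the 3 lower, Grm8 passed the count filter through cortex (4.99 to 9.89 CPM, against 2.27 to 5.27 CPM in hippocampus). Setting it apart leaves Grm3 and Grm4. Homer3 was higher by 1.36 ± 0.17 (SE, adjusted p = 2.54e-05, edgeR), Homer2 by 0.73 ± 0.13 (adjusted p = 0.000956) and Grm5 by 0.50 ± 0.11 (adjusted p = 0.00364) on the log2 scale. Grm3 was lower in hippocampus (-0.84 ± 0.18, adjusted p = 0.00368), as was Grm4 (-0.77 ± 0.21, adjusted p = 0.0156). Grm8 was at -1.02 ± 0.33 (adjusted p = 0.0451), which is given as a description because of its count filter. The Grm8 call was lost with the mouse as a block (-1.08, adjusted p = 0.0535), in 7 of 9 fits without a library (adjusted p 0.0119 to 0.141 over the 9) and in 5 of 7 other alternatives, the block included. The Grm4 call was lost with counts thinned to the smallest library (-0.55, adjusted p = 0.247) and without cortex of control mouse 37 (adjusted p = 0.0661) or hippocampus of control mouse 20 (adjusted p = 0.0680). Grm2 (0.11 ± 0.17), Grm7 (0.05 ± 0.15) and Homer1 (-0.28 ± 0.16) were not called, with adjusted p of 0.740, 0.918 and 0.237.

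In GA-Camk2a mice the same comparison called Grm5 higher in hippocampus (0.85 ± 0.10, SE, adjusted p = 1.38e-05, edgeR), Homer2 higher (0.46 ± 0.16, adjusted p = 0.0338) and Grm3 lower (-0.54 ± 0.20, adjusted p = 0.0454). Of 13098 genes tested there, 17.3% were called higher and 15.9% lower. Homer3, the member with the largest rise from cortex to hippocampus in controls, was at 0.27 ± 0.16 in GA-Camk2a mice and was not called (adjusted p = 0.186). Homer1 was at 0.38 ± 0.15 (adjusted p = 0.0539), Grm7 at 0.32 ± 0.16 (adjusted p = 0.134), Grm2 at 0.31 ± 0.21 (adjusted p = 0.263) and Grm4 at -0.04 ± 0.22 (adjusted p = 0.906), and Grm8 had too few counts to be tested. The Homer2 call was lost in 7 and the Grm3 call in 8 of 12 fits without a library. The Grm3 call was also lost with DESeq2 (adjusted p = 0.0582) and with no filter (adjusted p = 0.0788, edgeR). The Homer2 call was lost with limma-voom (adjusted p = 0.0507). The change of the region difference with genotype is, by construction, the interaction given above, and it was called for Homer3 alone.

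**Figure D4:**
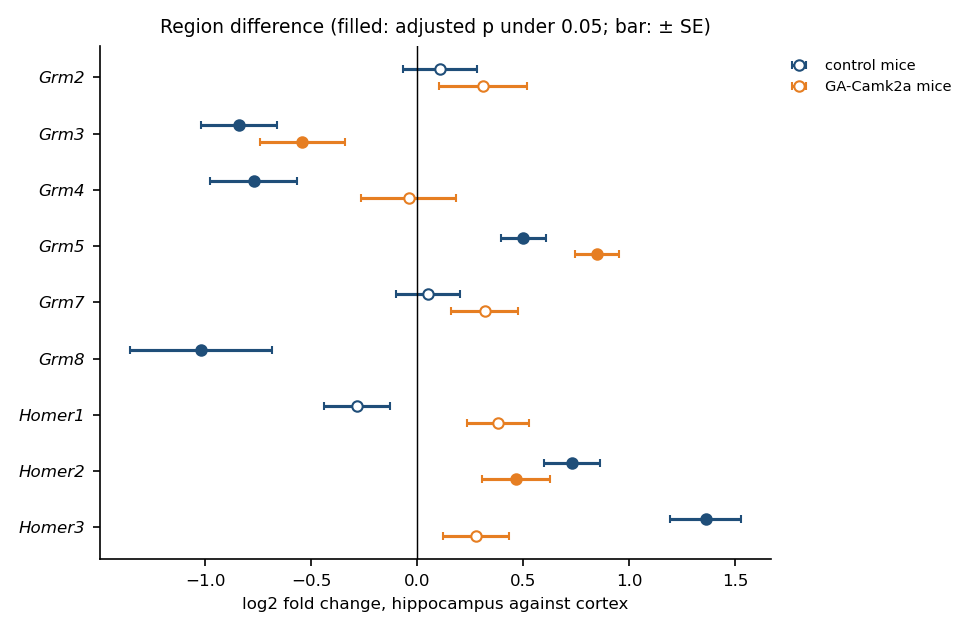
Log2 fold change (± SE) of hippocampus against cortex for each member, in control mice (blue) and GA-Camk2a mice (orange); filled points have an adjusted p under 0.05, and Grm8 was not tested in GA-Camk2a mice. Homer3 stands at 1.36 in controls and 0.27 in GA-Camk2a mice, and Grm5 is above 0 in both.

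Across the 4 groups the order of mean levels differed between members. For Grm5 it was GA-Camk2a cortex (70.9 ± 9.12 CPM, SD, n = 6), control cortex (116 ± 20.5, n = 5), GA-Camk2a hippocampus (133 ± 20.5, n = 6) and control hippocampus (171 ± 8.29, n = 4), and the neighbours in the middle overlapped. Homer2 ran from GA-Camk2a cortex (19.4 ± 2.78 CPM) through GA-Camk2a hippocampus (29.9 ± 7.28) and control cortex (31.1 ± 5.27), which did not differ beyond their spread, to control hippocampus (53.0 ± 3.02). Homer1 ran from GA-Camk2a cortex (36.3 ± 7.40 CPM) through GA-Camk2a hippocampus (48.8 ± 11.5) and control hippocampus (69.1 ± 1.71) to control cortex (80.8 ± 25.0), with overlap between each pair of neighbours. Homer3 was lowest in control cortex (19.2 ± 1.98 CPM), followed by GA-Camk2a cortex (26.9 ± 7.27), GA-Camk2a hippocampus (33.7 ± 2.69) and control hippocampus (51.6 ± 11.7), and here too neighbours overlapped. Grm3 was lowest in GA-Camk2a hippocampus (11.3 ± 3.20 CPM) and highest in control cortex (31.4 ± 6.53), and GA-Camk2a cortex (16.4 ± 3.89) and control hippocampus (18.1 ± 3.38) lay between them and overlapped with each other.

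Among the signalling partners of the receptors the medians were nearer to 0. Of the group I effectors (Gq subunits, phospholipase C, IP3 receptors, protein kinase C and their regulators), 7 of 18 tested were lower in cortex and 8 of 19 in hippocampus, with 0 higher in either. Their median log2 fold changes were -0.36 and -0.28. Plcb1, the phospholipase C downstream of group I receptors in forebrain, had the lowest adjusted p in cortex (-0.87 ± 0.10, SE, adjusted p = 5.21e-06, edgeR), and the kinase gene Prkcb in hippocampus (-1.16 ± 0.14, adjusted p = 8e-05). Of the group II and III effectors (Gi/o subunits, adenylyl cyclases, Girk channels and regulators), 7 of 19 were lower and 1 higher in cortex, with a median of -0.35. In hippocampus 9 of 20 were lower and 2 higher, with a median of -0.31.

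Adcy5, the adenylyl cyclase of striatal neurons, led the falls of that list in cortex (-1.05 ± 0.14, SE, adjusted p = 1.46e-05, edgeR) and differed between the regions (1.08 ± 0.20, adjusted p = 0.009). Rgs14, a Gi regulator of CA2 neurons, led them in hippocampus (-0.92 ± 0.11, adjusted p = 7.28e-05). Gnai2, a Gi subunit, rose in cortex (0.54 ± 0.11, adjusted p = 0.002) and in hippocampus (0.41 ± 0.08, adjusted p = 0.00362). Among proteins that bind the receptors or Homers, 5 of 19 were lower in cortex and 9 of 20 in hippocampus, with 0 higher and medians of -0.22 and -0.28. The calcium release channel gene Ryr2 had the lowest adjusted p of these in cortex (-0.57 ± 0.12, adjusted p = 0.00347), and Agap2, a Homer-binding GTPase, in hippocampus (-0.89 ± 0.09, adjusted p = 2.27e-05).

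Cell type markers moved with genotype in the same libraries. Excitatory neuron markers were lower for 5 of 7 genes in each region, with medians of -0.74 in cortex and -0.86 in hippocampus. Their summed CPM fell in the range of 1900 to 2401 in control cortex, 1224 to 1676 in GA-Camk2a cortex, 2070 to 2616 in control hippocampus and 1097 to 1489 in GA-Camk2a hippocampus. None of the 7 was at 0 in any library. Microglia markers were higher for 5 of 7 genes in each region, and inhibitory neuron markers for 1 of 6 in cortex and 2 of 6 in hippocampus. The part of these shifts in the member results was not tested.

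Markers of the hippocampal subfields were lower in GA-Camk2a hippocampus for 2 of 3 CA1 genes (median -0.83), 2 of 4 CA2 genes (median -0.58) and 3 of 3 tested CA3 genes (median -0.80), and for 0 of 4 dentate gyrus genes. Summed CPM in control and GA-Camk2a hippocampus was 142 to 191 and 82.3 to 154 for CA1, 476 to 642 and 388 to 575 for CA2, and 274 to 403 and 174 to 232 for CA3. In cortex 0 of 3 CA1, 1 of 4 CA2 and 3 of 3 CA3 genes were lower. In the test of the difference between regions (hippocampus minus cortex), 1 of 3 CA1 genes, 0 of 4 CA2 genes, 1 of 3 CA3 genes and 2 of 7 excitatory neuron genes were called, each with the lower value in hippocampus. The medians were -0.70, -0.30, -0.17 and -0.42, against -0.02 for all genes tested. The called subfield genes were Wfs1 of CA1 (-0.96, adjusted p = 0.0273, edgeR) and Bok of CA3 (-0.91, adjusted p = 0.0337), and the excitatory neuron gene Neurod6 was at -1.23 (adjusted p = 0.0271). The CA3 marker Iyd was at 0 in 6 libraries and was not tested, and no other marker of CA1, CA2 or CA3 was at 0 in any library. The part of these markers in the hippocampal and region results, Homer3 included, was not tested.

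A list of striatal markers, among them the dopamine receptors Drd1 and Drd2, was lower for 7 of 7 genes in cortex, with a median of -1.54. Its summed CPM was 844 to 1360 in control cortex and 239 to 554 in GA-Camk2a cortex, whereas in hippocampus it was 153 to 204 and 152 to 258 with 0 of 4 tested genes called. In cortex Drd2 was at 0 in GA-Camk2a mouse 16 and the other markers were above 0 in every library, and 4 of 7 differed between the regions in the test of the difference. Its part in the cortical values of the members, several of which are also expressed in striatum, was not tested. Activity-induced genes were lower for 4 of 6 tested genes in each region, with medians of -0.93 and -0.57. Their summed CPM was 220 to 585 in control cortex and 150 to 255 in GA-Camk2a cortex, and 162 to 270 and 102 to 176 in hippocampus. Their part in the Homer1 result was not tested.

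**Figure D5:**
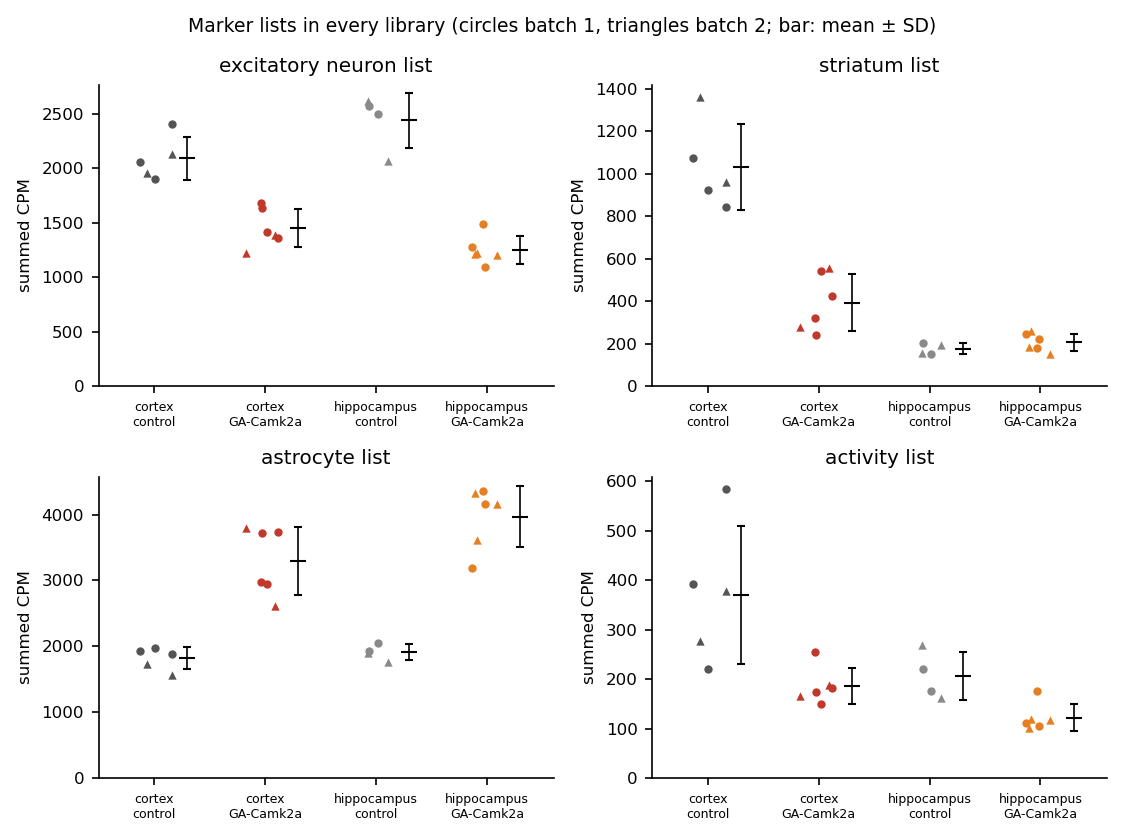
Summed CPM of the excitatory neuron, striatum, astrocyte and activity lists in every library; circles are batch 1, triangles batch 2, and the bar is the mean ± SD. The striatum list separates the genotypes in cortex (844 to 1360 against 239 to 554) and overlaps in hippocampus.

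The genes most like each member were taken by Pearson r over log2 CPM of the 21 libraries, among 11492 genes (11493 for Grm8). These libraries share regions, genotypes and mice, and the values are a description. Grm5 was most like Gria2 (0.96), an AMPA receptor subunit, and Sptbn1 (0.95). Grm3 was most like Pcsk2 (0.93), Spock1 (0.92) and Egr1 (0.91), and Homer1 was most like the activity-induced Egr3 (0.91), then Hlf (0.86) and Fbxw7 (0.84). Homer2 was most like Hpca (0.91), a calcium sensor of hippocampal neurons, Cnksr2 (0.88) and Zswim6 (0.88). Homer3 was most like Fam210b (0.81), Spink8 (0.79) and Cpne6 (0.79). Grm2 had Ankrd29 (0.82), Grm7 (0.81) and Rapgef4 (0.80) as its nearest genes, and Grm7 had Pitpna (0.87), Diras2 (0.85) and Rims1 (0.84). For the sparse Grm4 (Gm21541, 0.77, Prkar2b, 0.75, and 4933434E20Rik, 0.72) and Grm8 (Sv2c, 0.72, Ipo7, 0.68, and Zfp930, 0.66) the likeness was weakest.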

How the data were processed

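Cortex and hippocampus RNA of 11 mice was sequenced as 21 prime-seq libraries. The study's methods give alignment to GRCm39, its reporting summary names zUMIs and demultiplex among the software, and the submitters' processing notes name FastQC 0.11.8, cutadapt 1.12, STAR and DESeq2 1.44. The deposited values are raw gene counts in whole numbers. Whether molecular identifiers or reads were counted, the annotation release, and the use of introns and strand are not given in the sources used here, so counts of the 7 members that overlap a gene on the opposite strand are uncertain to that extent. For the GA-Camk2a libraries the study's methods name DESeq2 and state no covariates. No count column was left unused.

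Symbols came from a GENCODE annotation of GRCm38 matched on Ensembl number (43308 of 64361 rows, 96.1% of counts). The GFP row was left out of the library totals and of every test. Groups, mouse numbers and batches were taken from the labels. Batches 1 and 2 held 3 and 2 control and 4 and 2 GA-Camk2a cortex libraries, and 2 and 2 control and 3 and 3 GA-Camk2a hippocampus libraries. Over the 46 pairs of replicates, the chi-square divided by its degrees of freedom was 2.10 to 15.1, so none was treated as a duplicate.

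Each comparison was fitted over all genes with edgeR 4.0.16 in R 4.3.3 (TMM, filterByExpr with a minimum count of 10, quasi-likelihood F-test, batch as a term) and adjusted over all genes tested with the Benjamini-Hochberg method. The SE of a log2 fold change is its size divided by the square root of F. The difference between regions was a contrast over all libraries. The test was checked on simulated counts. The 10 mice with both regions pair the libraries, because the same animal gave both. The correlation of their deviations from genotype and batch means was -0.0043 to 0.115, and the fit with the mouse as a block was an alternative. Other alternatives were DESeq2 1.42.0, limma 3.58.1 (voom with quality weights), median-of-ratios and upper quartile factors, no filter, no batch term, thinning to the smallest library, each batch alone, all libraries in one fit, and each library left out.

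All 9 members are named, with the 3 genes most like each (prior count of 2, average log2 CPM of at least 3) and, of each other list, the gene with the lowest adjusted p per direction. Members and lists were chosen with earlier results of these data known. Results of a few single genes that this rule would name are left out. Promoters came from RefSeq (GRCm38.p6). Depth was 1048201 to 5888102 counts per library, so that genes such as Grm8, with 1 to 31 counts, were measured with low precision.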

Additional observations from a re-analysis of the deposited data

Results flagged for a closer look

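In 5 of 36 sets of member values per group, the highest or lowest library stood far from the rest by Dixon's test. For independent, normally distributed values chance gives this in about 1 of 20, but these sets share their libraries. In GA-Camk2a hippocampus, mouse 34 had the highest value for Grm2 (22.6 CPM, with the next library at 12.8) and for Homer1 (71.0 CPM, with the next at 50.2). Hippocampus of control mouse 31 had 11.97 CPM of Grm4, against 7.30 to 7.47 in the other controls. Cortex of the same mouse had 9.89 CPM of Grm8, against 4.99 to 5.72 in the other controls. Cortex of GA-Camk2a mouse 23 had 50.4 CPM of Homer1, against 30.1 to 36.9 in the other GA-Camk2a mice. What sets these libraries apart was not tested.

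The genotype effect on Homer3 differed between the regions by -1.13 on the log2 scale (hippocampus minus cortex, edgeR adjusted p = 0.0290). The call was lost with the mouse as a block (-1.20, adjusted p = 0.0556), with limma-voom (adjusted p = 0.0727) and with counts thinned to the smallest library (adjusted p = 0.0547).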

How the results depend on the processing

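Of 8 members called in cortex, DESeq2 called 5 (Grm4, Grm7 and Grm8 were lost), thinning to the smallest library 5 (Grm8 could not be fitted there, and Grm2 and Grm4 were lost), batch 1 alone 5 and batch 2 alone 2. Of 5 in hippocampus, thinning called 4 (Grm5 was lost), batch 1 alone called 0 and batch 2 alone 3, each with fewer libraries. With no filter, and with all libraries in a single fit, the hippocampal count was 6, Grm2 being added. Without 1 library at a time the counts in either direction were 5 to 8 in cortex (5 to 7 lower, with Homer3 higher without GA-Camk2a 30 or 35), where control 31 and GA-Camk2a 23 gave the lowest, and 3 to 6 in hippocampus, where controls 20 and 31 gave the lowest. The single call of a difference between regions (Homer3) became 0 with limma-voom, with thinning and with the mouse as a replicate block, and was 0 or 1 without 1 library. In GA-Camk2a mice 3 members differed between regions, 5 with thinning and 1 to 3 without 1 library (1 without cortex 16, cortex 34 or hippocampus 23). The 6 region calls in controls, Grm8 included, became 5 with the mouse block, which changed no other member call. Over all genes, the 59 called for a difference between regions became 16 with thinning, 36 with no batch term, 127 with DESeq2 and 159 with no filter, the 1635 in cortex became 1064 with thinning, and the 1628 in hippocampus 953.

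Fold changes that were not called changed sign. Grm4 in hippocampus was -0.0134 with thinning and -0.0591 to 0.210 without 1 library, and hippocampal Grm8 was -0.0257 to 0.876. With thinning the difference between regions was -0.212 for Grm3 and 0.0399 for Homer2, and Grm7 in controls was -0.101 between regions. Without 1 library the region difference in controls was -0.0074 to 0.216 for Grm2 and -0.0068 to 0.137 for Grm7, and that of Grm4 in GA-Camk2a mice was -0.234 to 0.0870, with 0.0015 when no batch term was used. No called fold change was reversed. The cause was not tested. Of 546 member results without 1 library 475 kept direction and side of the threshold, as did 330 of 379 under the other alternatives. Grm8 could not be fitted in batch 2 alone or with thinning.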
